A study of Mus musculus with 12 samples.

Results

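The genes described here are subunits of the proteasome, their assembly chaperones and proteins that cap or inhibit it, measured in mouse soleus muscle. They were chosen by name, as protein-coding genes whose symbol begins with Psma, Psmb, Psmc, Psmd, Psme, Psmf or Psmg and a digit, without Psmb8, Psmb9 and Psmb10. This gave 47 of the 28997 genes in the tables. Of these, 45 had a total of at least 100 normalised reads over the 12 libraries and were analysed. The other two were Psma8, an alpha subunit known from testis, with a total of 11.8, and Psmb11, a beta subunit known from thymus, with a total of 0.956. The symbol rule also takes Psmc3ip, which is known as a partner in meiotic recombination and is no part of the proteasome. It leaves out subunits with other symbols, such as Adrm1, which is given with the wider pathway below.

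The soleus is a hind limb muscle rich in slow fibres, and stranded mRNA libraries were made from 12 mice, 3 per group. The labels give the groups as Cdh5Cre-NOX1CKO on a high fat diet, Cdh5Cre-NOX1CKO on a chow diet, Cdh5cre-WT on a high fat diet and Cdh5cre-WT on a chow diet, each for 8 weeks. All 4 groups carried a Cre driven by Cdh5, a gene of endothelial cells, so the conditional loss of Nox1 was directed to endothelium and not to muscle fibres. Age and sex are not given in the sources used here. The deposited tables compare groups under the codes G1 to G4: G3 against G1, G4 against G2, G2 against G1 and G4 against G3. Which code stands for which genotype and diet is not stated, so the codes are kept and no difference is assigned to the knockout or the diet. The tables hold no value per library, and error is therefore given as the standard error implied by each log2 fold change and its p-value. Totals summed to 298863066 normalised reads, a mean of 24905255 per library. Slow muscle markers summed to 23943 to 30598 CPM over the groups and fast muscle markers to 42113 to 50888 CPM, and no marker of either list was at 0.

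The proteasome is a barrel-shaped protease that degrades proteins tagged with ubiquitin. Its core particle is built of alpha and beta rings, with the active sites on the beta subunits Psmb5, Psmb6 and Psmb7 facing an inner chamber. The regulatory particle caps the core, binds ubiquitin, unfolds the substrate with a ring of ATPases and removes the ubiquitin chain. Muscle uses the pathway in normal protein turnover and in wasting, and the transcription factors NRF1 (gene Nfe2l1) and NRF2 (gene Nfe2l2) are known to drive proteasome genes through antioxidant response elements.

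Promoters of 3 genes are shown because their genes are catalytic or carry the lowest or highest log2 relative to its error below: Psmb6, the caspase-like catalytic subunit, Psmd11, a lid subunit that joins lid and core, and Psmb5, the chymotrypsin-like catalytic subunit. The windows run from 250 bases before to 50 bases after the start of the RefSeq gene on GRCm38.p6, at chr11:70525107-70525406 (plus strand) for Psmb6, chr11:80428365-80428664 (plus strand) for Psmd11 and chr14:54617946-54618245 (minus strand) for Psmb5. Capitals mark matches to TGANNNNGC, the core of the antioxidant response element, searched on both strands.
Psmb6: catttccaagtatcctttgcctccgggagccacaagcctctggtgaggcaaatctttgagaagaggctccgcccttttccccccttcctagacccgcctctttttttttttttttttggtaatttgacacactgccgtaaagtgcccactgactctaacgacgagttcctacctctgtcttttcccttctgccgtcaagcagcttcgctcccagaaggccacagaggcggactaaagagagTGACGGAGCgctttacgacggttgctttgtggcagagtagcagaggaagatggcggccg
Psmd11: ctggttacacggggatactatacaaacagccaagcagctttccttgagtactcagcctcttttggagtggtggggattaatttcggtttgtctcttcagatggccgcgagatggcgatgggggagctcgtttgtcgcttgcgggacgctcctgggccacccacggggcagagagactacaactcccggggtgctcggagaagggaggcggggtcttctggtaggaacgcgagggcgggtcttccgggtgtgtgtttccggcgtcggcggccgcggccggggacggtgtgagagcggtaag
Psmb5: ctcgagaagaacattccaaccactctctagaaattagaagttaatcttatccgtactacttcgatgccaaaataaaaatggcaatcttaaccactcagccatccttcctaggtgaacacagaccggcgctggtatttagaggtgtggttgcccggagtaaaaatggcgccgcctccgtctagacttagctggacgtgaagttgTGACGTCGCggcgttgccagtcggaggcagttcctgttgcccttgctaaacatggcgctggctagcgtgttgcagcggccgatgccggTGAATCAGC
The match in Psmb6 began 9 bases before the start (position -9), those in Psmb5 at positions -47 and 42, and the window of Psmd11 held none. Over all members, 39 of 47 had a RefSeq window, 42 windows in all. Of these, 24 (57.1%) held the element, against 13581 of all 32851 RefSeq windows (41.3%). It was found in 10 of 13 core windows (76.9%), and in 6 of 15 regulatory particle windows (40%). CCAAT, searched in the same way, was in 14 of the 42 windows (33.3%), and in 37.4% of all windows. It was in 7 of 13 core windows (53.8%) and in 4 of 15 regulatory particle windows (26.7%). These counts describe letters in the windows and no test was made of them.

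Several subunits have processed copies elsewhere in the genome that share reads with them, and the counting splits these reads by estimate. Psme2 is the beta chain of the interferon-inducible cap, and Psme2b is its near-identical copy, with 5 of 717 coding bases different (99.3% identical). The authors' deposited total was 876 normalised reads for Psme2 and 4331 for Psme2b. A coding stretch of Psma3, an alpha subunit (chr12:70983319-70983408, plus strand), and its match in the pseudogene Gm13835 (chr6:31142553-31142642, minus strand), both on GRCm38, are shown because they do not differ at any base.
Psma3: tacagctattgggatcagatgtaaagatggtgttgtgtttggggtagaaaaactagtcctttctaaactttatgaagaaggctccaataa
Gm13835: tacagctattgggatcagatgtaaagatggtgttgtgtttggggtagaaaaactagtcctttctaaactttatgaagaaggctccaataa
They were identical over 665 aligned bases of transcript. In the authors' deposited tables the total was 6810 for Psma3 and 18763 for Gm13835, so more reads were given to the pseudogene than to the subunit. Psma5 likewise had a total of 3468, against 4874 for Psma5-ps and 3632 for Gm12989. Smaller shares went to copies of Psmd2 (Gm5422, total 13482), Psmd11 (Gm14048, 7211), Psmb5 (Gm3375, 5955), Psmc1 (Gm9575, 5500), Psma4 (Gm6542, 4803), Psmb3 (Gm4950, 2671) and Psmb6 (Psmb6-ps2, 1411). Values of all these members are uncertain for this reason. Psmc3ip overlaps Mlx, Psmd13 overlaps Sirt3 and Psmd1 overlaps Gm21972, and they are uncertain too.

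Core and regulatory particle subunits were present at similar levels, and the assembly chaperones far below both. Levels were compared per kilobase of transcript, as CPM per kb over all 12 libraries. The 14 core subunits had a median of 48.1 CPM per kb and the 17 regulatory particle subunits a median of 49.4 CPM per kb. Among the core subunits Psmb7, the trypsin-like catalytic subunit, was highest with 91.1 CPM per kb, followed by Psmb6 with 87.6. Psmb5 had 50.8 CPM per kb, and 73.0 with the reads of its copies added. Psma3 was lowest with 8.01 CPM per kb, Psma5 had 9.37 and Psma2 13.9. With their copies added Psma3 reached 30.6 CPM per kb and Psma5 32.3. Psma2 has no such copy, but its annotated transcript of 2911 bases, like that of Psma3 with 2846, is more than double the median of 1162.5 bases for core subunits, which lowers a level per kb.

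The highest regulatory particle subunit was 3.21-fold above the lowest, and the highest core subunit 11.4-fold. With copies added the core range was 6.75-fold, between Psma2 and Psmb6 at 93.5 CPM per kb. The highest regulatory particle subunit was Psmc3, an ATPase of the base, with 80.6 CPM per kb. Psmd4, a ubiquitin receptor, had 75.4 and Psmd8, a lid subunit, 72.8 CPM per kb. Psmd14, the deubiquitinase of the lid, was lowest with 25.1 CPM per kb, next to Psmd13, a structural lid subunit, with 25.4. The chaperones of the base, Psmd5, Psmd9 and Psmd10, lay between 3.86 and 5.48 CPM per kb. Those of the core, Psmg1 to Psmg4, lay between 4.22 and 8.87 CPM per kb. The caps Psme1, Psme3 and Psme4 had 24.7, 24.4 and 31.2 CPM per kb. Psme1 pairs with Psme2, Psme3 forms a nuclear cap and Psme4 encodes a large single-chain activator. Psmf1, an inhibitor of the core in vitro, had 3.65 CPM per kb, and Psmc3ip had the lowest level of the 45 members.

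**Figure D1:**
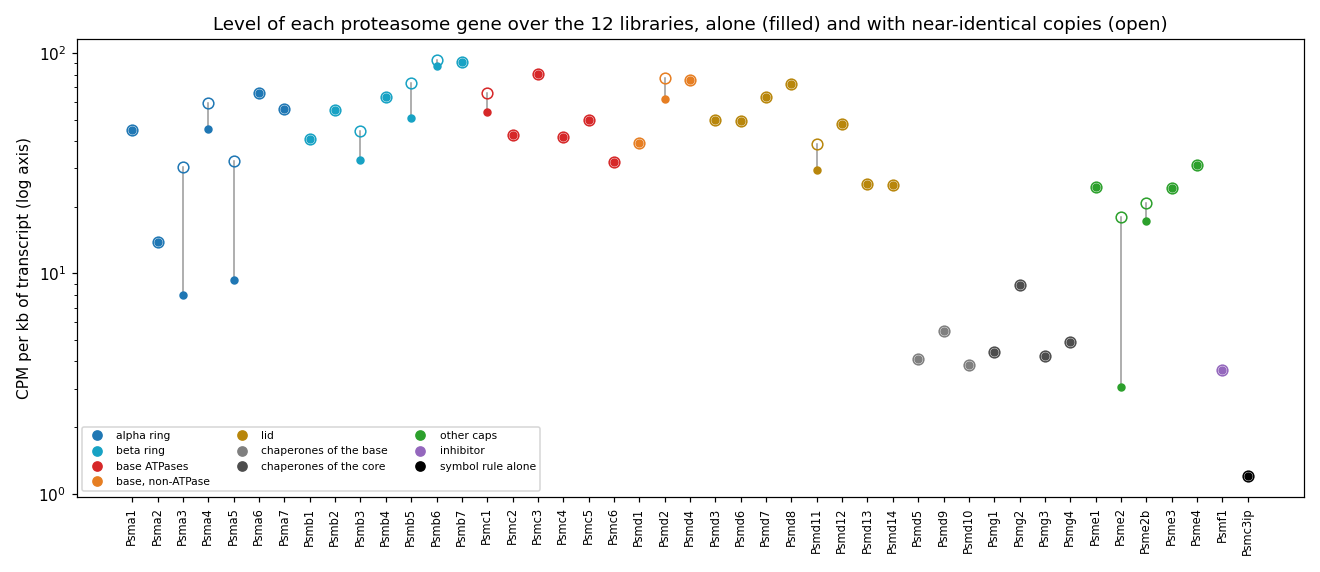
CPM per kb of transcript (log axis) of the 45 members over all 12 libraries, coloured by role; filled points are the member alone and open points include its near-identical copies. Core and regulatory subunits lie mostly between 25 and 91 CPM per kb, Psma3 and Psma5 move up to 30.6 and 32.3 when copies are added, and the chaperones lie below 10.

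Across the 4 groups the levels of each member lay close together. Group levels were derived from the total and the fold changes, as mean normalised reads per library. In whole muscle, fewer cells of a type and less RNA per cell cannot be told apart. For Psmb7 this gave 2610 in G4, 2595 in G3, 2632 in G2 and 2686 in G1. For Psmb5 it gave 1180 in G4, 1120 in G3, 1098 in G2 and 1155 in G1. Psmb6 stood at 1773 in G4, 1617 in G3, 1774 in G2 and 1797 in G1, so that G3 was the low group and the other groups lay close together. The ratio of the highest to the lowest group had a median of 1.08 over the 45 members and of 1.18 over the 15494 genes that reached the same minimum total. It was smallest for Psmc3 (1.02) and largest for Psmc3ip (1.44), Psme2 (1.31) and Psmg4 (1.25), a chaperone of the core. These 3 had among the lowest totals, at 465, 876 and 807 normalised reads, while the median total was 16017 over members and 2712 over all genes. G4 was the highest group for 22 members, G3 for 9, G2 for 3 and G1 for 11. The lowest group was G4 for 3 members, G3 for 15, G2 for 21 and G1 for 6. Over all genes each group was highest for 21.1% to 27.8% and lowest for 20.0% to 27.3%. The members are measured in the same libraries, so these counts are not independent.

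**Figure D2:**
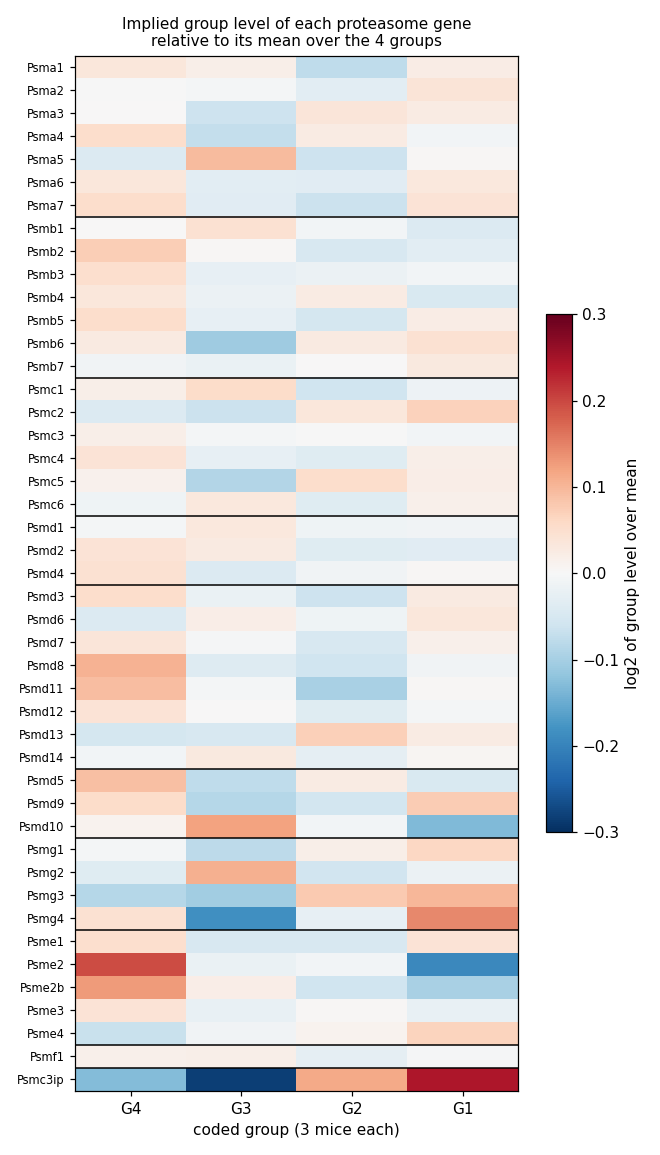
Group level of each of the 45 members relative to its mean over the groups (log2, colour scale from -0.3 to 0.3), with roles separated by lines. Most cells are pale; Psmb6 is low in G3, Psme2 is high in G4 and low in G1, and Psmc3ip is low in G3 and high in G1.

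In G3 against G1 the authors' deposited table called no proteasome gene, that is, gave none an adjusted p under 0.05, while 61 of all 28997 genes did (0.21%). One member, Psmb6, had an unadjusted p under 0.05, while 5.63% of genes with a total of at least 100 did. For Psmb6 the authors' deposited table gave a log2 fold change of -0.15 (implied SE 0.06), with p = 0.0133 and an adjusted p of 1. Its 95% interval ran from -0.27 to -0.03, which is 0.828 to 0.978 as a fold. Members were ranked by log2 over its error, and next lowest in the authors' deposited table were Psmc3ip at -0.52 (SE 0.28) and Psmc2, an ATPase of the base, at -0.13 (SE 0.07). At the high end it gave 0.25 (SE 0.15) for Psmd10, 0.09 (SE 0.07) for Psmb1, a beta subunit without an active site, and 0.07 (SE 0.06) for the ATPase Psmc1. Psmb5 had a log2 of -0.05 (SE 0.10) and Psmb7 of -0.05 (SE 0.07) in the authors' deposited table. The 3 catalytic subunits were thus all below 0, and the interval of Psmb6 was the one that left out 0. The intervals of 41 of the 45 members lay within 1.5-fold in either direction, as did those of 60.1% of all genes tested. They included all 14 core and all 17 regulatory particle subunits, so that larger differences of these lay outside their intervals. The median implied SE was 0.09 for members and 0.18 for all genes. Above 0 were 16 of 45 members, with a median log2 of -0.03, and 50.1% of all genes. Fast muscle markers summed to 42113 CPM in G3 and 50888 CPM in G1, with 1 of 9 above 0 and a median log2 of -0.33. Adipocyte markers summed to 198 CPM in G3 and 241 CPM in G1, with 0 of 7 above 0. An unadjusted p under 0.05 was found for 4 of the fast muscle and 2 of the adipocyte markers, and none was called. The part of these markers in the values of the members was not tested.

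In G4 against G2 the authors' deposited table again called 0 members, beside 200 of 14539 genes with an adjusted p (1.38%). None had an unadjusted p under 0.05, which 9.06% of genes with a total of at least 100 had. The values leaned upward, with 34 of 45 members above 0 and 50.1% of all genes, but the median log2 was 0.04. Psmd11 was highest by its ratio to the error, and the authors' deposited table gave it a log2 of 0.19 (SE 0.10), p = 0.066 and an adjusted p of 0.597. Its implied levels were 2232 in G4 and 1954 in G2. Psmd3, a lid subunit, followed at 0.12 (SE 0.07) and the alpha subunit Psma7 at 0.12 (SE 0.09) in the authors' deposited table. Ranked lowest were -0.12 (SE 0.09) for Psmd13, -0.07 (SE 0.07) for Psmc2 and -0.08 (SE 0.08) for Psme4, in the authors' deposited table. Lid subunits thus stood at both ends of the order. Of the catalytic subunits, Psmb5 was at 0.10 (SE 0.10), Psmb6 at -0.001 (SE 0.06) and Psmb7 at -0.01 (SE 0.07) in the authors' deposited table. The intervals of 42 members lay within 1.5-fold, and of 57.2% of all genes. For Psmd11 the interval ran from 0.991 to 1.32 as a fold. Endothelial markers summed to 587 CPM in G4 and 477 CPM in G2, with 8 of 8 above 0 and 1 of them, Eng (0.66), called in the authors' deposited table. Adipocyte markers summed to 238 CPM in G4 and 189 CPM in G2, with 5 of 7 above 0. Fabp4 (0.37) was called in the authors' deposited table and was the 1 of these 7 with an unadjusted p under 0.05. Retn was lowest at -0.64. Slow muscle markers summed to 25911 CPM in G4 and 30598 CPM in G2, with 0 of 8 above 0 and none called. Fast muscle markers summed to 43848 CPM in G4 and 47862 CPM in G2, with 0 of 9 above 0 and none called. An unadjusted p under 0.05 was found for 2 of the slow and 0 of the fast muscle markers. The part of these markers in the values of the members was not tested.

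In G2 against G1 the authors' deposited table lists genes with a log2 of 0 or below, and positive values were rebuilt from the other comparisons. It listed 33 of the 45 members and 12 were rebuilt. None was called, and 1 of the 23354 genes listed or rebuilt was (0.00428%). No member had an unadjusted p under 0.05, and 2.35% of genes with a total of at least 100 did. Ranked lowest in the authors' deposited table were -0.09 (SE 0.07) for Psmd3, -0.11 (SE 0.09) for Psma7 and -0.10 (SE 0.09) for Psma1, an alpha subunit. Psmd3 and Psma7 were among the highest in G4 against G2, which shares the G2 libraries. Ranked highest were the rebuilt values of Psmb4, a beta subunit without an active site, at 0.07 (SE 0.07), Psme2 at 0.19 (SE 0.21) and Psmd10 at 0.12 (SE 0.15). Summed with its copy Psme2b, Psme2 had 0.06. Psmb5, Psmb6 and Psmb7 had -0.07, -0.02 and -0.03 in the authors' deposited table. Here 12 of 45 members were above 0, against 49.7% of all genes, and the median was -0.03. The intervals of 42 members lay within 1.5-fold, and of 61.8% of all genes. Slow muscle markers summed to 30598 CPM in G2 and 23943 CPM in G1, with 8 of 8 above 0. Erythroid markers summed to 112 CPM in G2 and 179 CPM in G1, with 0 of 5 above 0. None of either list was called, but 6 of 8 and 3 of 5 had an unadjusted p under 0.05. Leukocyte and macrophage markers summed to 73.5 CPM in G2 and 94.6 CPM in G1, endothelial markers to 477 and 524 CPM and adipocyte markers to 189 and 241 CPM in the same groups, with 0 of 11, 0 of 8 and 0 of 7 above 0 and none called. Of these 3 lists, 0 of 11, 0 of 8 and 1 of 7 had an unadjusted p under 0.05. The part of all these markers in the values of the members was not tested.

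In G4 against G3 no member was called in the authors' deposited table, beside 7 of 17752 genes (0.0394%). Psmb6 was the one member with an unadjusted p under 0.05, which 4.83% of genes with a total of at least 100 had. The authors' deposited table gave it a log2 of 0.13 (SE 0.06), p = 0.0324 and an adjusted p of 0.9997. This comparison and G3 against G1 share the G3 libraries, in which Psmb6 was lowest, so they do not count as separate observations. Next in the authors' deposited table came the alpha subunit Psma4 at 0.12 (SE 0.08) and the ATPase Psmc5 at 0.10 (SE 0.07). Its low end held Psma5 at -0.14 (SE 0.14), the chaperone Psmg2 at -0.14 (SE 0.15) and Psmd10 at -0.11 (SE 0.15) in the authors' deposited table. Summed with their copies, Psma5 had -0.03, Psma4 0.11 and Psmb6 0.14, so the place of Psma5 depended on how reads were split. Psmd10 was the highest member in G3 against G1, again with shared G3 libraries. Psmb5 was at 0.08 (SE 0.10) and Psmb7 at 0.01 (SE 0.07) in the authors' deposited table. The intervals of 42 members lay within 1.5-fold, and of 59.6% of all genes. Slow muscle and endothelial markers were above 0 in 8 of 8 each, fast muscle markers in 8 of 9 and adipocyte markers in 5 of 7. Leukocyte and macrophage markers were above 0 in 2 of 11 and erythroid markers in 0 of 5. None of all these was called. An unadjusted p under 0.05 was found for 1 of 8 endothelial, 1 of 11 leukocyte and macrophage and 1 of 7 adipocyte markers. Of the slow muscle, fast muscle and erythroid markers, 0 had one. Endothelial markers summed to 587 CPM in G4 and 530 CPM in G3. The part of all these markers in the values of the members was not tested.

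**Figure D3:**
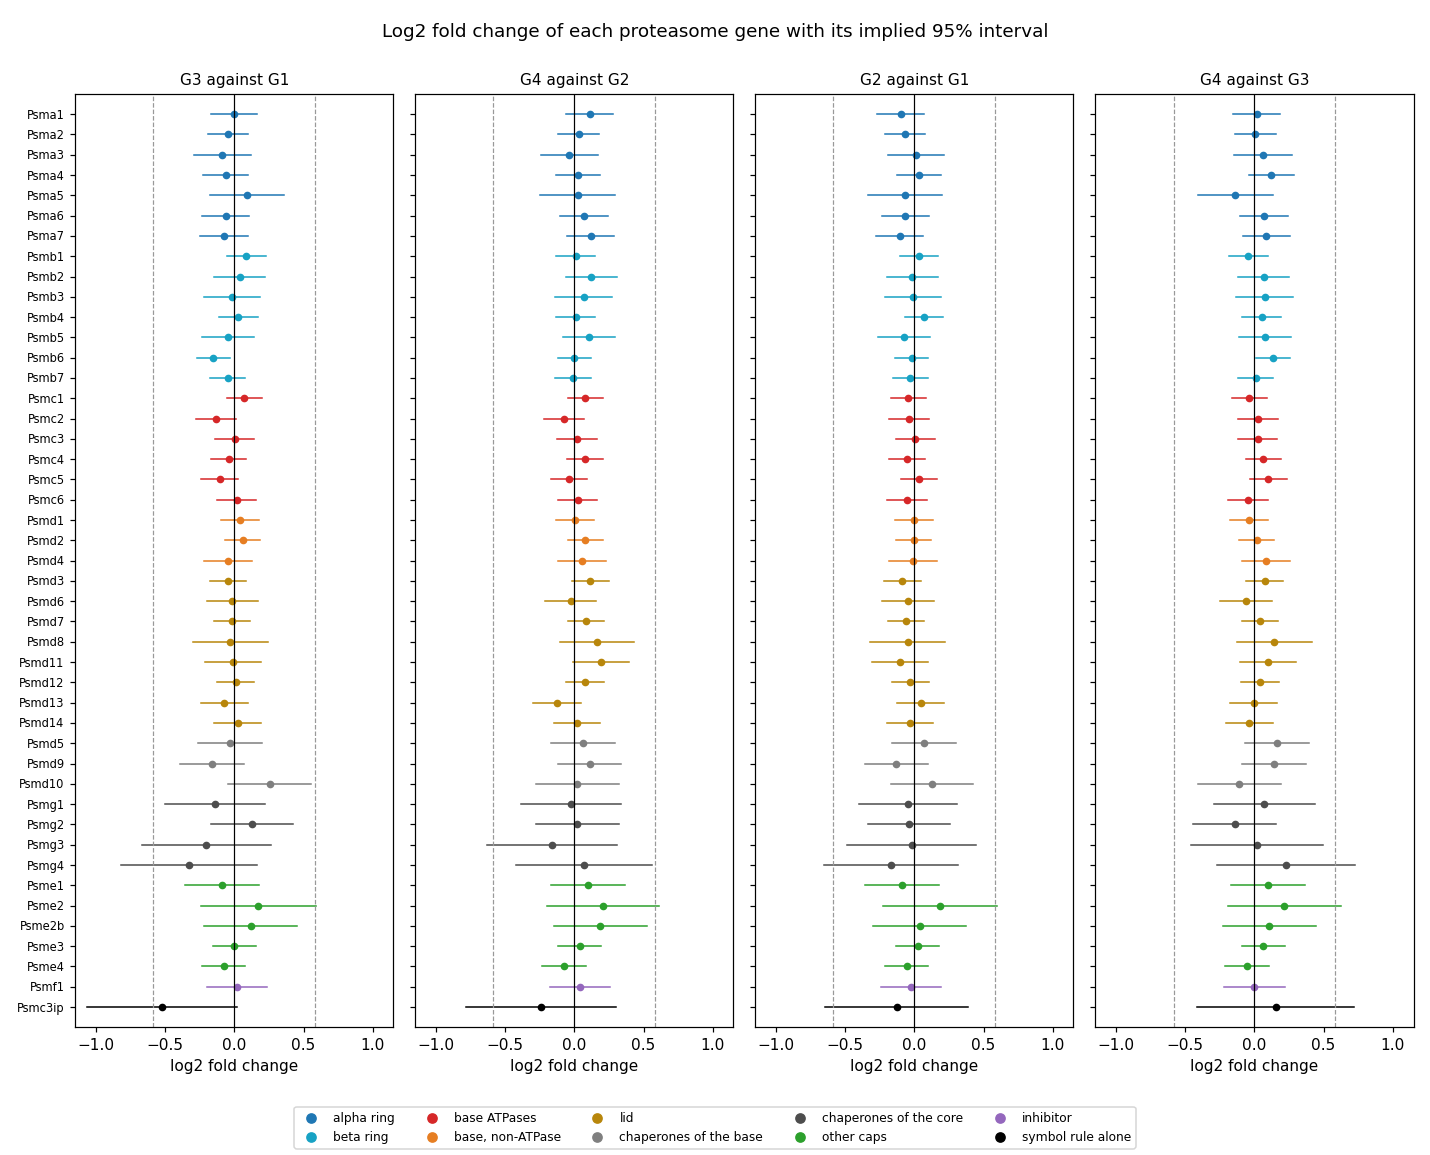
Log2 fold change of the 45 members in each comparison, with the 95% interval implied by the deposited p-value; colours give roles, the solid line is 0 and the dashed lines are 1.5-fold. Core and regulatory subunits lie inside the dashed lines in all 4 comparisons, and the widest intervals belong to Psmc3ip, Psmg3, Psmg4 and Psme2.

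Whether the difference between G4 and G2 was that between G3 and G1 was tested as the difference of both (the interaction), since these share no group. No member passed an adjusted p of 0.05 by the Benjamini-Hochberg procedure over 15494 genes, of which 1 did (0.00645%). None had an unadjusted p under 0.05, and 4.12% of all genes did. Above 0 were 35 of 45 members, with a median of 0.07, and 51.5% of all genes. Ranked highest were Psmb6 at 0.15 (SE 0.09), Psmd3 at 0.16 (SE 0.10) and Psmd9 at 0.27 (SE 0.17). Ranked lowest were Psmd10 at -0.23 (SE 0.22), Psmb1 at -0.08 (SE 0.10) and Psmg2 at -0.10 (SE 0.21). Intervals were wider here, and 38 of 45 lay within 1.5-fold, against 42.4% of all genes. Across the 45 members the log2 of G4 against G2 and that of G3 against G1 had the same sign in 27, with Pearson r = 0.51 and Spearman rho = 0.31. Without Psmc3ip, left out after its values were seen, r was 0.32 and rho 0.26 over 44 members. That correlation is across genes, which are measured in the same libraries and are not independent replicates. Psmc3ip had the lowest log2 in both comparisons in the authors' deposited tables, -0.24 in G4 against G2 and -0.52 in G3 against G1.

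The medians of the core and of the regulatory particle lay within 0.04 of each other in each comparison. In G3 against G1 the median log2 was -0.04 for the core and -0.01 for the regulatory particle, with 4 of 14 and 7 of 17 subunits above 0. In G4 against G2 it was 0.03 for the core and 0.06 for the regulatory particle, with 11 of 14 and 13 of 17 above 0. In G2 against G1 it was -0.02 for the core and -0.04 for the regulatory particle, with 4 of 14 and 3 of 17 above 0. In G4 against G3 it was 0.07 for the core and 0.03 for the regulatory particle, with 12 of 14 and 11 of 17 above 0. The medians of all genes lay within 0.01 of 0. The core median minus the regulatory one was -0.03, -0.03, 0.01 and 0.04 in that order, a difference that was not tested. Its sign depended on which members were kept. Members with near-identical copies were left out, together with Psmb6 and Psmb7, whose copies were found by name alone. That left 7 core and 14 regulatory subunits. The difference was then 0.02 in G3 against G1, 0.05 in G4 against G2 and -0.03 in G2 against G1. The copy of Psmb7 had a total of 42, against 31567 for Psmb7. With copies summed in instead, the difference was -0.01, -0.02 and -0.01 in the same order. Summed over subunits, the core had 18809 normalised reads per library in G4, 18193 in G3, 18275 in G2 and 18582 in G1. The ratio of core to regulatory reads was 0.479 in G4, 0.473 in G3, 0.483 in G2 and 0.481 in G1.

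**Figure D4:**
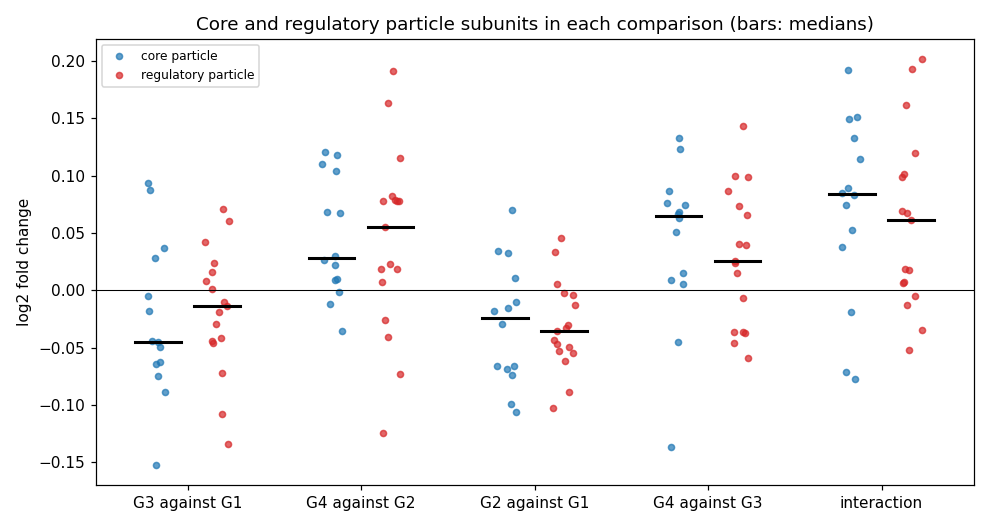
Log2 fold change of the 14 core (blue) and 17 regulatory particle subunits (red) in the 4 comparisons and in the interaction, G4 against G2 minus G3 against G1; points are subunits and bars are medians. The points of both particles overlap in each comparison, and their medians differ by at most 0.04.

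In G4 against G3, 33 of 45 members were above 0, with a median of 0.06, and 50.9% of all genes were. Over 15177 genes the log2 of this comparison had a Spearman rho of -0.25 with transcript length, so short transcripts tended to be higher in G4. The median transcript was 1430 bases for members and 2734 for all genes. GC content, length and total were removed as 1 joint trend, so the part of each alone was not tested. Without that trend 28 of 45 members were above 0, the median of all members was 0.01, that of the core 0.01 and that of the regulatory particle -0.001. The same step left 27 of 45 above 0 in G4 against G2, where the median was 0.02 for all members and 0.02 for the regulatory particle. It left 20 of 45 above 0 in G3 against G1 with a median of -0.01, 13 of 45 in G2 against G1 with a median of -0.03, and 28 of 45 in the interaction with a median of 0.03.

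The immune subunits Psmb8, Psmb9 and Psmb10 replace Psmb5, Psmb6 and Psmb7 in cells exposed to interferon, and none was called. In G4 against G2 and in G3 against G1 each was further from 0 than the subunit it replaces, with larger errors, and that difference was not tested. In G4 against G2 the authors' deposited table gave 0.68 (SE 0.25) for Psmb8, with p = 0.00703 and an adjusted p of 0.206. For Psmb10 the authors' deposited table gave 0.63 (SE 0.24), with p = 0.00809 and an adjusted p of 0.224, and for Psmb9 0.37 (SE 0.38). In G3 against G1 the authors' deposited table had 0.61 (SE 0.25) for Psmb8, 0.47 (SE 0.38) for Psmb9 and 0.07 (SE 0.24) for Psmb10. In the other 2 comparisons the values lay between -0.21 and 0.36, with Psmb10 at both ends. Interferon response markers stood above 0 in 9 of 9 in both G4 against G2 and G3 against G1, with Tap1 (1.14) and Bst2 (1.03) called by the authors' deposited table for G4 against G2. They stood above 0 in 8 of 9 in G4 against G3 and in 2 of 9 in G2 against G1, none called. In G4 against G3 the authors' deposited table gave -0.03 for Psmb8, -0.05 for Psmb9 and 0.36 for Psmb10. The summed level of the interferon response markers was 87.7 CPM in G4, 71.5 in G3, 53.6 in G2 and 56.0 in G1. Leukocyte and macrophage markers were above 0 in 7 of 11 in G4 against G2 and in 6 of 11 in G3 against G1, none called, and their sum ranged from 73.5 to 102 CPM over the groups. The part of these markers in the values of the immune subunits was not tested. Psme1 and Psme2, which form an interferon-inducible cap, had 0.10 (SE 0.14) and 0.20 (SE 0.21) in the authors' deposited table for G4 against G2. For G3 against G1 the authors' deposited table gave -0.09 (SE 0.14) for Psme1 and 0.17 (SE 0.21) for Psme2.

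**Figure D5:**
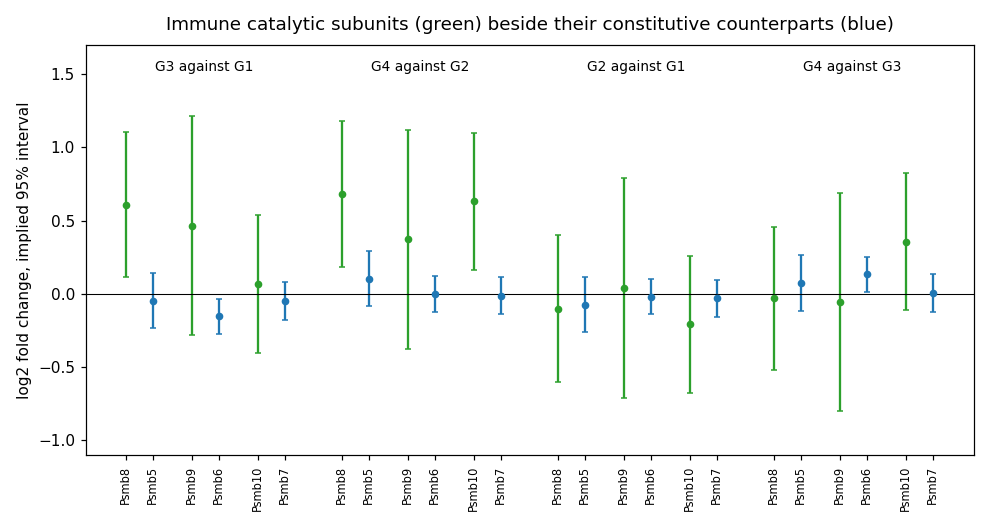
Log2 fold change with implied 95% interval for the immune subunits (green), each left of the constitutive subunit it replaces (blue), in the 4 comparisons. The green points reach 0.68 in G4 against G2 and 0.61 in G3 against G1, with wider intervals than the blue points, which lie between -0.15 and 0.13.

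The wider pathway gave 38 genes with a total of at least 100, and none was called in any comparison. At an unadjusted p under 0.05 there were 3 in G3 against G1, 6 in G4 against G2, 0 in G2 against G1 and 2 in G4 against G3, the immune subunits included. These are 7.89%, 15.8%, 0% and 5.26% of the 38, beside 5.63%, 9.06%, 2.35% and 4.83% of all genes in the same order. In the authors' deposited tables Nfe2l1, which encodes NRF1, had 0.13 (SE 0.06, p = 0.0489) in G4 against G2 and 0.15 (SE 0.06, p = 0.0222) in G3 against G1. Nfe2l2, which encodes NRF2, had -0.13 (SE 0.17) and 0.07 (SE 0.17) in the same comparisons of the authors' deposited tables. Zfand5, an activator of the proteasome, had 0.28 (SE 0.12, p = 0.0137) and the ubiquitin receptor Adrm1 0.24 (SE 0.12, p = 0.0436) in the authors' deposited table for G4 against G2. Their adjusted p-values were 0.297 for Zfand5 and 0.504 for Adrm1 in the authors' deposited table. In the interaction Adrm1 had a log2 of 0.35, with an unadjusted p of 0.0375 and an adjusted p of 0.9997. It was the 1 pathway gene of 38 with an unadjusted p under 0.05 there (2.63%), beside 4.12% of all genes.

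The muscle ubiquitin ligases Fbxo32 and Trim63, known as markers of atrophy, had values of opposite sign. Fbxo32 had -0.20 (SE 0.15) in G4 against G2, 0.22 (SE 0.15) in G3 against G1 and -0.34 (SE 0.15, p = 0.0281) in G4 against G3 in the authors' deposited tables. Trim63 had 0.20 (SE 0.18), -0.25 (SE 0.18) and 0.32 (SE 0.18) in the same comparisons of the authors' deposited tables. Fbxo21, another muscle ligase, had 0.24 (SE 0.11) in G4 against G2 and 0.21 (SE 0.10) in G3 against G1 in the authors' deposited tables. Their adjusted p-values were 0.377 or above.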

How the data were processed

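Soleus RNA of 12 mice was made into stranded mRNA libraries, per the labels' protocols. Bowtie2 2.1.0, RSEM 1.2.15 and edgeR with the mm10 or GRCm38 build are named in the submitters' processing notes, and the sources used here do not say which tool gave the p-values. Per the file headers, each table the authors deposited gives per gene the total, the p-value with its step-up adjustment, and the fold change as a signed fold and as log2. The totals are a signal deposited by the authors under the header of total counts. They are taken here as reads divided by library size factors and summed over 12 libraries, which the header does not state. The signed fold is a score the authors deposited, and its log2 was used. Adjusted p-values were blank in the deposited tables for 14458 genes in G4 against G2 and 11245 in G4 against G3 and were kept blank. No value per library is given, so no count test was run, and the number of libraries limits precision. Separate animals are named, with no batch.

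Implied standard errors are the log2 divided by the normal quantile of its p-value, and 95% intervals follow from them. Positive values of G2 against G1 were rebuilt from the other 3 comparisons (the sum of G4 against G3 and G3 against G1, less G4 against G2), which matched 7792 listed genes within 1.0e-14 on the log2 scale. The interaction is G4 against G2 minus G3 against G1, with summed variances. Rebuilding was also run on simulated group values with a shared variance. There the rebuilt values equal the full ones by construction, so that run checks the code alone. Genes with an adjusted p under 0.05 are called. Symbols were matched to GENCODE M21 (28058 of 28997), coordinates are 1-based, and lengths are those of 1 principal transcript per gene. Copies were found with BLAST 2.17.0 at 95% identity over at least 300 bases, or by name as pseudogenes. Those found by name alone, such as Psmb6-ps2 and Psmb7-ps2, have no measured identity and are counted with the near-identical copies. Trends were removed with splines of 4 degrees of freedom (patsy 1.0.2), and other steps used Python 3.11.15, pandas 2.3.3 and scipy 1.17.1.

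The members and lists were chosen with earlier results of these data known. Values are given for the 3 highest and 3 lowest members by log2 over error in each comparison, for Psmb5, Psmb6 and Psmb7, and for pathway genes at the ends of their list. Other members named for their level, and Psme1, Psme2 and Nfe2l2, were chosen after their values were seen. Alternatives were other minimum totals, a fold of 1.5, centring, removal of trends, a weighted mean, leaving out members with copies and summing copies. List symbols with no match are not used here, and 1 pathway gene and 1 pair of sequences are not reported here.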

Additional observations from a re-analysis of the deposited data

How the results depend on the processing

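The count of called members was 0 in all comparisons and in the interaction under every alternative run. Adjusted p-values were recomputed with no minimum total, with a total of at least 500 and with centring on the median of all genes. They were also recomputed after removal of the trend on GC content, length and total. A fold of at least 1.5 and leaving out members with near-identical copies only take members away from a count of 0. The result of those alternatives was therefore fixed in advance. The core median ranged from -0.05 to -0.00 in G3 against G1, 0.01 to 0.07 in G4 against G2, -0.07 to -0.02 in G2 against G1 and 0.01 to 0.07 in G4 against G3. The regulatory median ranged in the same order from -0.02 to -0.001, 0.02 to 0.06, -0.04 to -0.03 and -0.001 to 0.03. The core minus regulatory median ranged from -0.03 to 0.02 in G3 against G1, -0.03 to 0.05 in G4 against G2, -0.03 to 0.01 in G2 against G1 and 0.01 to 0.04 in G4 against G3. Its sign held in the last of these and in the interaction (0.02 to 0.03), but the difference was not tested. Centring shifts both medians alike, and a total of at least 500 removes no analysed subunit of either particle. Those settings could therefore not change the sign. Summing each member with its copies, chosen after seeing the data, gave -0.01, -0.02, -0.01 and 0.02. No paired analysis was possible because the tables carry no value per sample, and for the same reason no library could be left out. The interval of Psmc3ip (total 465) was too wide to exclude a 1.5-fold difference in any comparison. In G3 against G1 so were those of Psmg4, Psme2 and Psmg3, with totals of 807, 876 and 1113 normalised reads.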
